A study of Mus musculus with 9 samples.

Results

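Myc and 35 genes of ribosome biogenesis and of biosynthesis coupled to it were read as a group of 36 genes. The cells were BaF3, a haematopoietic line of the mouse that depends on interleukin-3. A gene was represented by the probe set whose annotation gives its symbol alone, and by the brightest such probe set where there were several. By this rule 35 of the 36 genes were measured, among 19938 genes in all. Ppan, a factor of large ribosomal subunit maturation, stood only on a probe set shared with another symbol and was left out. All groups carried a retrovirus with a fusion kinase and were sorted by EGFP. The first group carried BCR-ABL, named BCR-ABL1P210 in the series design, the second BCR-RET and the third FGFR1OP-RET, with 3 Affymetrix MouseGene 1.0 ST arrays each, numbered 1 to 3 in the titles. BCR-ABL is the kinase of chronic myeloid leukaemia, and the series title ties both RET fusions to chronic myelomonocytic leukaemia. The sources used here do not say whether arrays of a group stem from separate infections or cultures, so a p-value here sets a difference against the spread of these arrays, technical or not. Cells without a fusion were not analysed here, and every difference is between fusions or between array numbers.

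Myc is a transcription factor that binds E-box DNA together with its partner Max and raises the output of genes needed for growth. Many of these genes serve the nucleolus, where RNA polymerase I transcribes the ribosomal RNA precursor and where snoRNPs, processing complexes and assembly factors turn it into the small and the large ribosomal subunit. In blood cells, growth factor receptors and oncogenic tyrosine kinases such as BCR-ABL are known to keep Myc expressed.

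All values are log2 expression values as deposited, made by gene-level RMA, which corrects background, makes the distributions of the arrays alike and summarises the probes of a gene. A uniform shift of all transcripts would not be seen on this scale, nor can a level be compared between genes. None of the 35 measured genes was among the lowest 25% of genes by mean. Differences were tested with limma over all 19938 genes, with Benjamini-Hochberg adjustment and a threshold of 0.05, and a gene is said to pass where its adjusted p is under that threshold. The error of a log2 difference is its standard error (SE), and that of a mean is the SD of 3 arrays (±).

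None of the 35 genes passed in any comparison between the fusions in the fit of the 3 group means. In BCR-RET against BCR-ABL, where 117 genes or 0.587% of all genes passed, 0 of 35 did so by limma, 3 had an unadjusted p under 0.05, and the lowest adjusted p was 0.238, for Myc. In FGFR1OP-RET against BCR-ABL 1.02% of all genes passed, 0 of the 35 did so, and 6 had an unadjusted p under 0.05. The lowest adjusted p there was 0.220, for Dkc1. In BCR-RET against FGFR1OP-RET 1.33% of all genes passed, 0 of the 35 did so, and 2 had an unadjusted p under 0.05. The F test for any difference among the 3 fusions called 1.74% of all genes and 0 of the 35, of which 4 had an unadjusted p under 0.05. A fit of BCR-RET against BCR-ABL with the array number as a block called 362 genes and again 0 of the 35. With the same block, Dkc1 alone of the 35 passed in FGFR1OP-RET against BCR-ABL and in the F test (adjusted p = 0.0350 and 0.0366). FGFR1OP-RET against BCR-ABL was not treated as paired by number. Deviations from the group means correlated between same-numbered arrays with r of 0.38 and 0.40 at numbers 1 and 3, and -0.13 at number 2.

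The 95% intervals in the fit without the array number were narrow. They are set gene by gene, with no adjustment over genes or comparisons. Like the p-values, they rest on the spread of these arrays, technical or not, and so do not bound differences between separate cultures. In each of the 3 comparisons the 95% interval of 34 of the 35 genes lay within 0.5 of 0 on the log2 scale, and all 35 lay within 1. The interval that reached farthest in BCR-RET against BCR-ABL was that of Rrs1, to -0.51 or 1.42-fold. In FGFR1OP-RET against BCR-ABL it was that of Mrto4, to 0.50, and in BCR-RET against FGFR1OP-RET that of Rrp12, to -0.51. The median SE was 0.07, as it was over all genes.

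**Figure D1:**
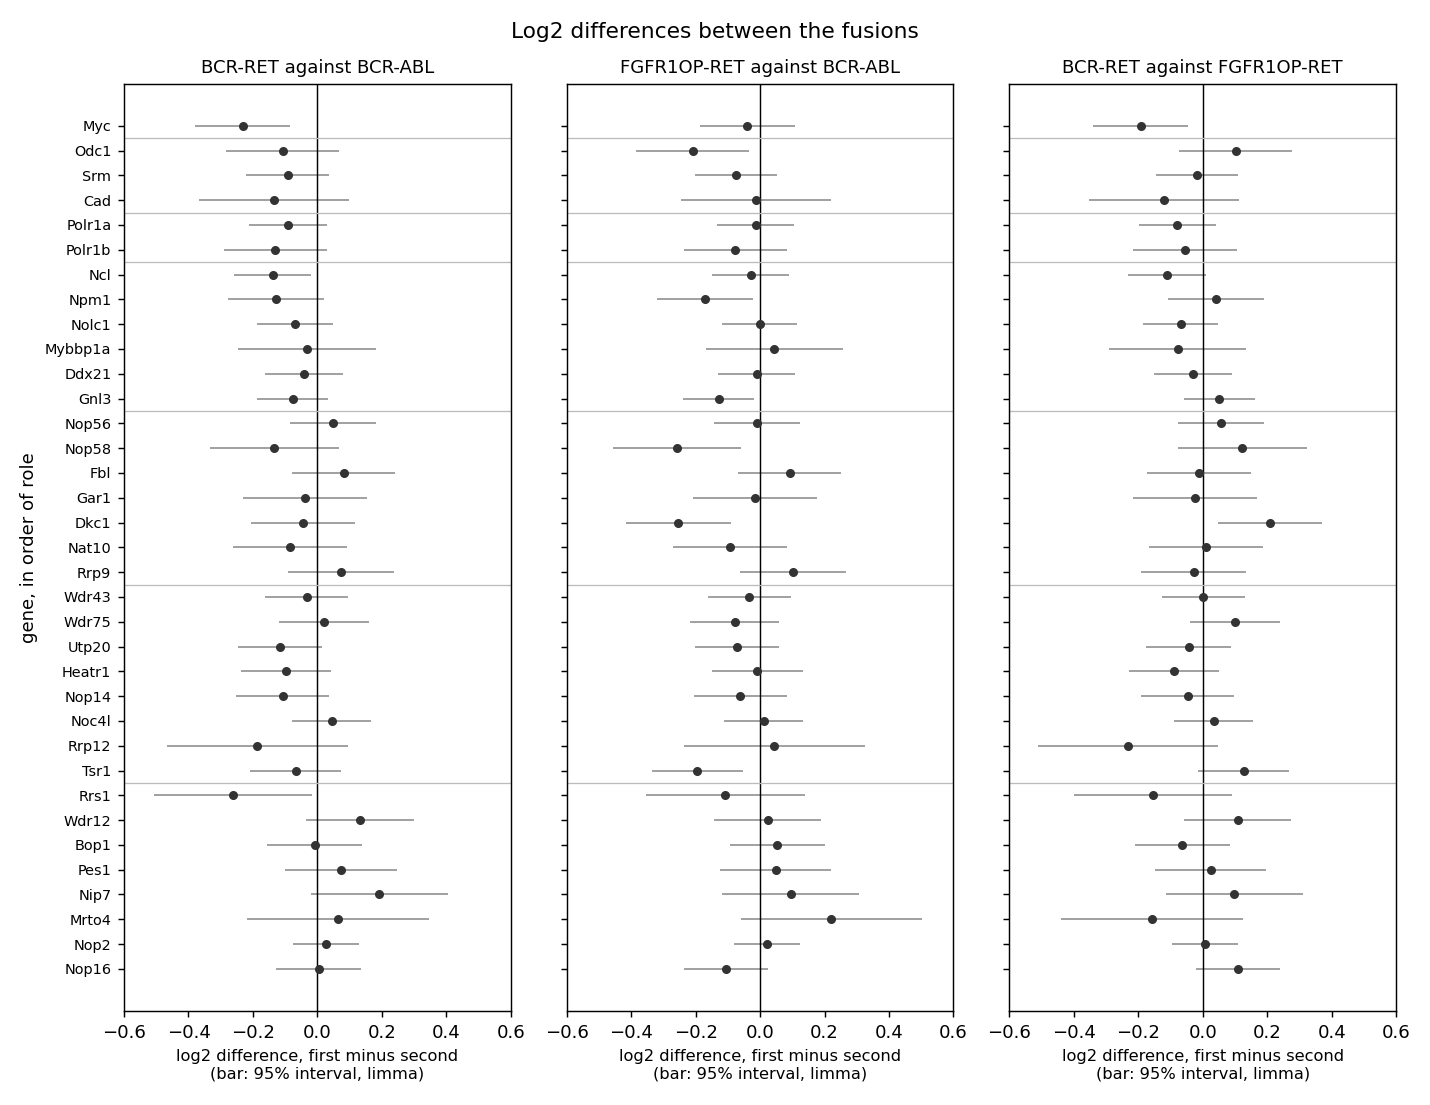
Log2 differences of the 35 genes in the 3 comparisons of the fusions, first minus second, in order of role. Points are differences and bars 95% intervals from limma, in the fit without the array number. Differences ran from -0.26 (Rrs1, left panel) to 0.22 (Mrto4, middle panel), and none passed the threshold.

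Myc read 13.47, 13.57 and 13.48 on the BCR-ABL arrays 1, 2 and 3, and 13.30, 13.38 and 13.15 on the BCR-RET arrays. On the FGFR1OP-RET arrays it read 13.49, 13.51 and 13.41. All 3 BCR-RET values lay below the other 6, and the BCR-ABL and FGFR1OP-RET values overlapped. The group means were 13.51 ± 0.06, 13.28 ± 0.11 and 13.47 ± 0.05 (n = 3). The difference of BCR-RET from BCR-ABL was -0.23 (SE 0.07, 95% interval -0.38 to -0.09, 1.17-fold, adjusted p = 0.238, and 0.0679 with the array number as a block). From FGFR1OP-RET it was -0.19 (SE 0.07, adjusted p = 0.227), and FGFR1OP-RET differed from BCR-ABL by -0.04 (95% interval -0.19 to 0.11). The order of the means was BCR-ABL, FGFR1OP-RET, BCR-RET, and no neighbours in it differed past the threshold.

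The 3 enzyme genes of polyamine and pyrimidine synthesis, Odc1, Srm and Cad, had differences between -0.13 and -0.09 in BCR-RET against BCR-ABL and between -0.21 and -0.01 in FGFR1OP-RET against BCR-ABL. Odc1, ornithine decarboxylase, the first step of polyamine synthesis and a classical Myc target, read 12.27, 12.49 and 12.42 with BCR-ABL and 12.16, 12.42 and 12.27 with BCR-RET. With FGFR1OP-RET it read 12.17, 12.23 and 12.15, below every BCR-ABL value (difference -0.21, SE 0.08, adjusted p = 0.397). A second Odc1 probe set gave -0.32 for the same difference, with overlapping ranges (adjusted p = 0.345). Cad is described with the array numbers.

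Polr1a and Polr1b, the largest and the second subunit of RNA polymerase I, had differences of -0.09 and -0.13 in BCR-RET against BCR-ABL and of -0.01 and -0.08 in FGFR1OP-RET against BCR-ABL. For Polr1a the lowest adjusted p over the 3 comparisons was 0.531.

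The 6 nucleolar chaperones and scaffold genes were Ncl, Npm1, Nolc1, Mybbp1a, Ddx21 and Gnl3, and all 6 had means below those of BCR-ABL in BCR-RET cells, with differences from -0.14 to -0.03. Ncl, the nucleolin gene, read 13.34, 13.34 and 13.38 with BCR-ABL, 13.20, 13.24 and 13.20 with BCR-RET, and 13.43, 13.29 and 13.26 with FGFR1OP-RET. The BCR-RET values of Ncl, like those of Myc, lay below all others (differences -0.14, SE 0.05, adjusted p = 0.375 from BCR-ABL and -0.11, adjusted p = 0.375 from FGFR1OP-RET). Npm1, the nucleophosmin gene, read 13.48, 13.43 and 13.45 with BCR-ABL, 13.31, 13.28 and 13.39 with BCR-RET, and 13.40, 13.15 and 13.30 with FGFR1OP-RET. The BCR-ABL values of Npm1 were thus the 3 highest, and neither difference passed (-0.13 and -0.17, adjusted p = 0.496 and 0.426). Mybbp1a, a nucleolar protein that binds Myb, held the single value 12.20 on all BCR-ABL arrays, so its SD there was 0.

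Among the 7 genes of box C/D and H/ACA particles and of RNA modification (Nop56, Nop58, Fbl, Gar1, Dkc1, Nat10 and Rrp9), Nop58 and Dkc1 had the differences of the greatest size in FGFR1OP-RET against BCR-ABL. Dkc1, the pseudouridine synthase of H/ACA particles, read 11.70, 11.86 and 11.91 with BCR-ABL and 11.68, 11.81 and 11.84 with BCR-RET. With FGFR1OP-RET it read 11.52, 11.53 and 11.66, and these were the 3 lowest values. FGFR1OP-RET differed from BCR-ABL by -0.25 (SE 0.07, 95% interval -0.42 to -0.09, 1.19-fold, adjusted p = 0.220, and 0.0350 with the array number as a block), and BCR-RET differed from FGFR1OP-RET by 0.21 (SE 0.07, adjusted p = 0.233). Nop58, a core protein of box C/D particles, read 11.96, 12.19 and 12.27 with BCR-ABL, 11.88, 12.05 and 12.09 with BCR-RET, and 11.98, 11.83 and 11.84 with FGFR1OP-RET. FGFR1OP-RET array 1 lay within the BCR-ABL range, and the difference was -0.26 (SE 0.09, adjusted p = 0.346). The 4 other genes of this set apart from Nat10, namely Nop56, Fbl, Gar1 and Rrp9, had differences from BCR-ABL between -0.04 and 0.10 in both RET fusions.

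The small subunit processome, which makes the first cuts towards 18S rRNA, was represented by Wdr43, Wdr75, Utp20, Heatr1, Nop14 and Noc4l, and by the later factors Rrp12 and Tsr1. Their median difference was -0.08 in BCR-RET and -0.05 in FGFR1OP-RET against BCR-ABL. Tsr1, a factor of late 40S maturation, read 11.22, 11.35 and 11.44 with BCR-ABL, 11.25, 11.33 and 11.22 with BCR-RET, and 11.15, 11.17 and 11.11 with FGFR1OP-RET. Its FGFR1OP-RET values were the 3 lowest (difference from BCR-ABL -0.19, SE 0.06, adjusted p = 0.308). Utp20 held the single value 10.81 on all FGFR1OP-RET arrays.

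The 8 measured genes of large subunit assembly were Rrs1, Bop1, Pes1, Wdr12, Nip7, Mrto4, Nop2 and Nop16. Of these, 6 had a mean above that of BCR-ABL in cells with BCR-RET, and 6 did so in cells with FGFR1OP-RET, with medians of 0.05 and 0.04. Rrs1, which helps the 5S particle into the large subunit, read 9.46, 9.69 and 9.78 with BCR-ABL, 9.37, 9.26 and 9.53 with BCR-RET, and 9.71, 9.53 and 9.38 with FGFR1OP-RET. The ranges of Rrs1 overlapped between all groups (BCR-RET against BCR-ABL -0.26, SE 0.11, adjusted p = 0.411). Nip7, a factor of 60S assembly, read 10.20, 10.35 and 10.31 with BCR-ABL, 10.57, 10.35 and 10.52 with BCR-RET, and 10.53, 10.43 and 10.18 with FGFR1OP-RET. It had the highest difference of BCR-RET from BCR-ABL, 0.19 (SE 0.09, adjusted p = 0.483), and BCR-RET array 2 overlapped BCR-ABL. Mrto4, which prepares the stalk of the large subunit, read 10.88, 10.99 and 10.73 with BCR-ABL, 10.81, 11.17 and 10.82 with BCR-RET, and 10.86, 11.15 and 11.25 with FGFR1OP-RET. Its difference of FGFR1OP-RET from BCR-ABL was 0.22 (SE 0.13, adjusted p = 0.626), with overlapping ranges. The genes of the PeBoW complex, Pes1, Bop1 and Wdr12, differed from BCR-ABL by 0.07, -0.01 and 0.13 in BCR-RET and by 0.05, 0.05 and 0.02 in FGFR1OP-RET. A second Wdr12 probe set gave -0.0039 in BCR-RET and -0.06 in FGFR1OP-RET against BCR-ABL.

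**Figure D2:**
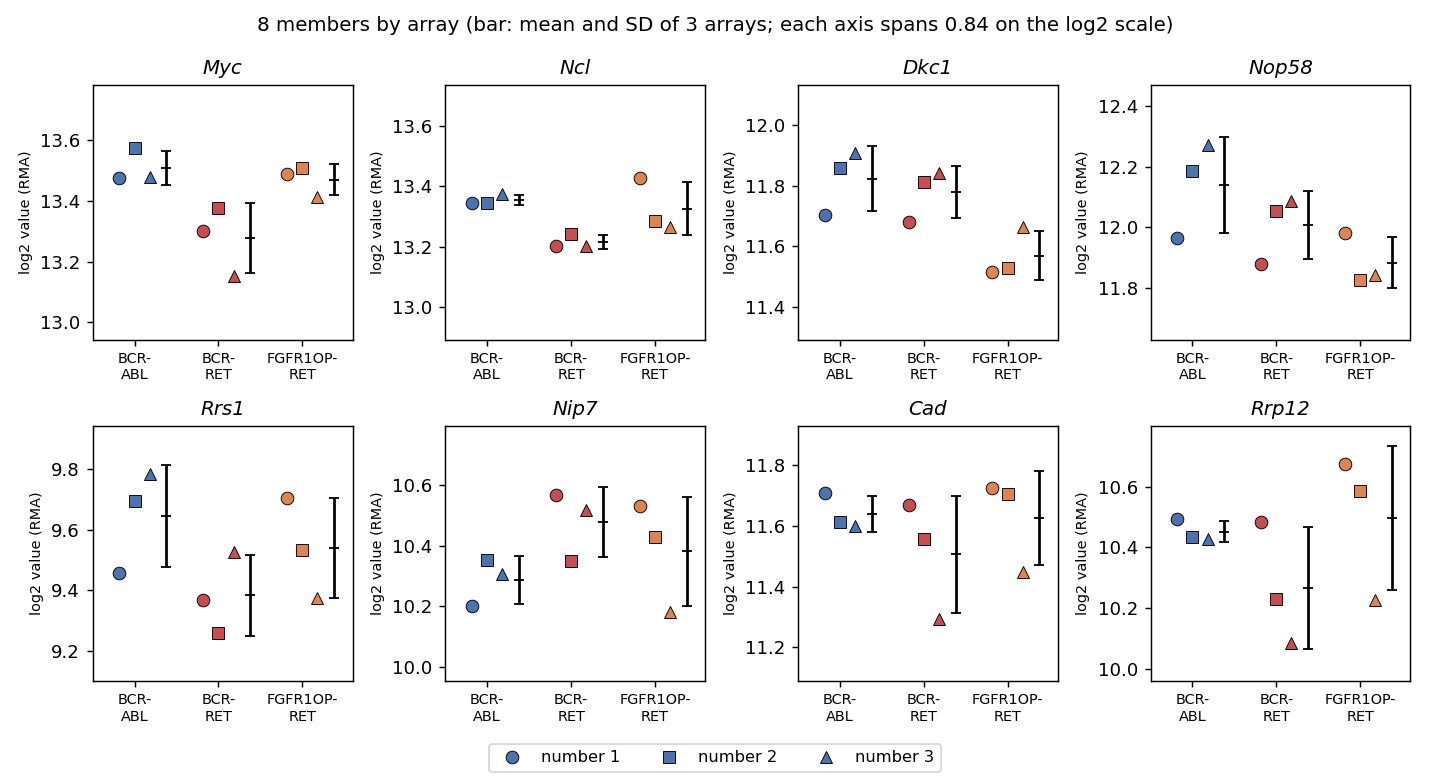
Log2 values of 8 of the genes on each array, by fusion and array number (circle 1, square 2, triangle 3), with the mean and SD of 3 arrays beside the points. The BCR-RET values of Myc and Ncl and the FGFR1OP-RET values of Dkc1 lie below all others, and for Cad and Rrp12 array 1 of each fusion lies above array 3.

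Seen as a whole, 24 of the 35 genes had a mean below that of BCR-ABL in cells with BCR-RET, 24 did so in cells with FGFR1OP-RET, and these comparisons share the BCR-ABL arrays. The median differences were -0.07 and -0.02, where the medians of all genes were 0.03 and 0.0015. In BCR-RET against FGFR1OP-RET 19 were below 0 and the median was -0.02, beside 0.03 over all genes. There 24 were below 0 under either other scaling, with medians of -0.05 after array medians were subtracted and -0.04 after a second quantile normalisation. Without BCR-RET array 3, 17 were below 0 with a median of 0.0035, and without FGFR1OP-RET array 3, 23 were below 0 with a median of -0.03. BCR-ABL cells had the highest mean for 21 of the 35, against 25.4% of all genes. Of the 6837 genes at least as bright as the dimmest of the 35, 38.5% had their highest mean in BCR-ABL, 60.8% were below 0 in BCR-RET against BCR-ABL and 57.5% in FGFR1OP-RET against BCR-ABL. When the values were quantile normalised once more, 18 of the 35 were above 0 in FGFR1OP-RET against BCR-ABL and the median was 0.0032, while in BCR-RET against BCR-ABL 25 were below 0 with a median of -0.05. With array medians subtracted, 29 were below 0 in BCR-RET and 27 in FGFR1OP-RET against BCR-ABL, with medians of -0.13 and -0.04, beside -0.03 and -0.02 over all genes. Without the 3 arrays of number 3, 17 were above 0 in BCR-RET and 20 in FGFR1OP-RET against BCR-ABL.

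The genes fell into all 6 possible orders of the 3 means. The order BCR-ABL, FGFR1OP-RET, BCR-RET was held by 13 genes, or 37.1%, and by 19.1% of the genes as bright. They were Myc, Srm, Cad, Polr1a, Polr1b, Ncl, Nolc1, Ddx21, Gar1, Utp20, Heatr1, Nop14 and Rrs1. The order BCR-ABL, BCR-RET, FGFR1OP-RET was held by 8 genes, among them Odc1, Npm1, Dkc1 and Tsr1, and no other order by more than 5.

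Ranges that do not overlap were found for 5 of the 35 genes in BCR-RET against BCR-ABL, all lower in BCR-RET, where 5.9% of all genes were lower in this way and 16.6% in either direction. They were Myc, Polr1b, Ncl, Npm1 and Gnl3, named after their values were seen. Such shares were not worked out for the genes as bright, here or in the comparisons below. Of those genes, 60.8% were below 0 in BCR-RET and 57.5% in FGFR1OP-RET against BCR-ABL. In FGFR1OP-RET against BCR-ABL 5 were lower (Odc1, Npm1, Gnl3, Dkc1 and Tsr1), with 5.13% of all genes lower and 12.1% in either direction. In BCR-RET against FGFR1OP-RET 3 were higher (Dkc1, Tsr1 and Wdr12) and 2 lower (Myc and Ncl), where 8.77% of all genes were higher, 6.49% lower and 15.3% in either direction. On a second Wdr12 probe set the ranges of these 2 fusions overlapped. Gnl3, the nucleostemin gene, read 11.94, 12.03 and 12.03 with BCR-ABL and no more than 11.93 on any other array.

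The within-group SD had a median of 0.08 over the 35 genes, from 0.03 for Nop2 to 0.18 for Mrto4, and of 0.09 over all genes. The SD of the 3 group means had a median of 0.054. Means of 3 arrays vary less than single arrays. With independent arrays and no difference between the groups, their SD would be near the within-group SD divided by the square root of 3. That value had a median of 0.046. It is a rough guide only, because most same-numbered arrays shared part of their deviations. The SD of the group means exceeded that value for 22 of the 35 genes and for 60.4% of all genes. The share to be met with no difference between the groups was not worked out. Over the 9 arrays the values of a gene spanned from 0.11 (Nop2, an rRNA methyltransferase gene) to 0.59 (Rrp12).

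**Figure D3:**
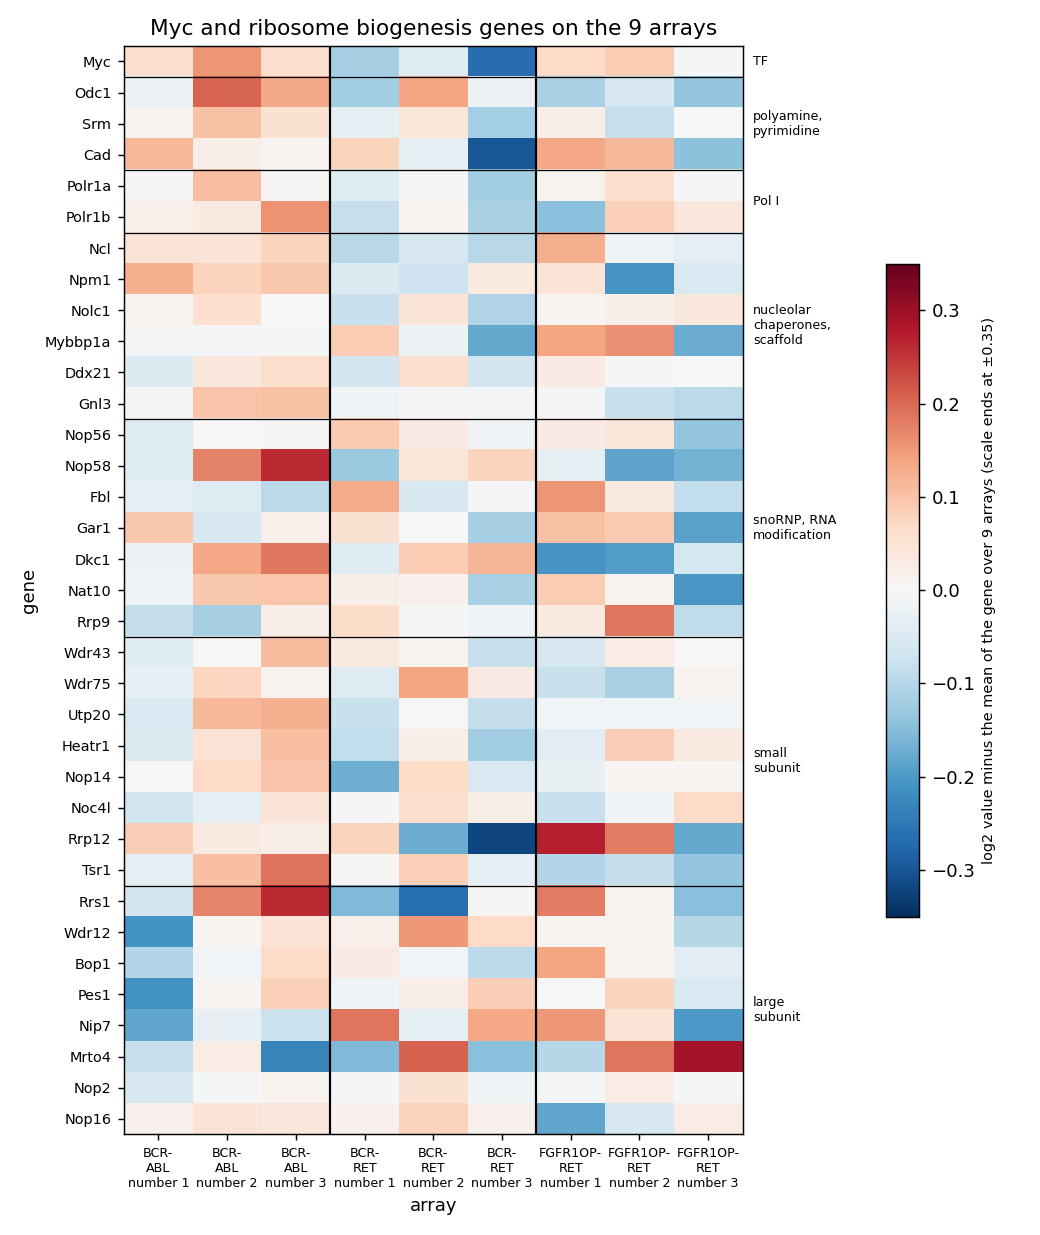
Heat map of the 35 genes (rows, in order of role) on the 9 arrays (columns), as the log2 value minus the mean of the gene over the 9 arrays. The colour scale ends at 0.35 on either side. Set against the mean of the own group, which is not drawn, 6 genes lie above it on BCR-ABL array 1 and 7 on BCR-RET array 3.

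The arrays of a group differed in how many of the genes lay above the group mean. On BCR-ABL array 1, 6 of the 35 lay above the mean of the BCR-ABL group, against 29.6% of the genes as bright. Arrays 2 and 3 of BCR-ABL had 25 and 23 above it, against 60.4% and 65.5%. In BCR-RET the counts were 14, 27 and 7, where 37.6%, 70.7% and 48.9% of the genes as bright lay above the mean. In FGFR1OP-RET they were 19, 22 and 12, where 44.9%, 34.6% and 63.3% of the genes as bright did so.

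Each number occurs once in each fusion group, and the titles do not say what it stands for. A fit of fusion and number together called 4.45% of all genes for any difference among the numbers and 0 of the 35 by limma, of which 4 had an unadjusted p under 0.05. Between numbers 1 and 3 9.85% of all genes passed, 3.18% higher and 6.67% lower in number 1, and 2 of the 35 passed, both higher in number 1. Between numbers 1 and 2 0.787% of all genes and 0 of the 35 passed, of which 2 had an unadjusted p under 0.05. Between numbers 2 and 3 0.00502% of all genes, a single gene, and 0 of the 35 passed, of which 3 had an unadjusted p under 0.05.

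The genes that passed were Cad and Rrp12. Cad encodes the enzyme that starts pyrimidine synthesis and is a classical E-box target of Myc. It read 11.71, 11.61 and 11.60 with BCR-ABL, 11.67, 11.56 and 11.29 with BCR-RET, and 11.73, 11.71 and 11.45 with FGFR1OP-RET. Array 1 was the highest and array 3 the lowest in all 3 fusions, and numbers 1 and 3 differed by 0.25 (SE 0.07, 1.19-fold, adjusted p = 0.0400). Rrp12, a factor of ribosomal subunit export and maturation, read 10.49, 10.44 and 10.43 with BCR-ABL, 10.48, 10.23 and 10.08 with BCR-RET, and 10.68, 10.59 and 10.23 with FGFR1OP-RET. Again array 1 was the highest and array 3 the lowest in each fusion (number 1 against number 3 0.30, SE 0.08, 1.23-fold, adjusted p = 0.0430). The F tests over the 3 numbers did not pass (adjusted p = 0.103 and 0.118).

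Both calls were near the threshold. With the median of each array subtracted, the adjusted p was 0.0510 for Cad and 0.0545 for Rrp12. The call of Cad ended without BCR-ABL array 1 (adjusted p = 0.0813) or 2 (0.0519), without BCR-RET array 1 (0.219), 2 (0.0564) or 3 (0.163), and without FGFR1OP-RET array 1 (0.0955) or 3 (0.168). The call of Rrp12 ended without BCR-ABL array 2 (0.0655), without BCR-RET array 1 (0.232), 2 (0.0555) or 3 (0.147), and without FGFR1OP-RET array 1 (0.134) or 3 (0.198).

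Between numbers 1 and 3 the median difference of the 35 genes was -0.02 with 16 genes above 0, or 0.08 with 27 above 0 after a second quantile normalisation, beside medians of 0.0070 and 0.0043 over all genes. With array medians subtracted it was -0.04 with 13 above 0. Dkc1 had the lowest difference, -0.17 (adjusted p = 0.0736), with array 1 the lowest in all 3 fusions. Ranges did not overlap for 5 genes, Cad, Gar1 and Rrp12 higher and Wdr75 and Noc4l lower in number 1, where 7.63% of all genes were higher, 10.8% lower and 18.4% in either direction. Between numbers 1 and 2 the median was -0.06, or 0.02 after a second quantile normalisation, and Mrto4 was at -0.25 (SE 0.10, adjusted p = 0.272). There 5 genes had ranges that did not overlap, Nolc1, Heatr1, Nop14, Pes1 and Mrto4, all lower in number 1, where 6.04% of all genes were lower and 10.4% in either direction. Between numbers 2 and 3, 28 of the 35 were above 0, with a median of 0.03, while 55.0% of all genes and 42.3% of the genes as bright were above 0. After a second quantile normalisation 30 were above 0 with a median of 0.06, and with array medians subtracted 22 with a median of 0.01. Without BCR-ABL array 3 the median was 0.06 (30 above 0), and without BCR-RET array 2 or 3 it was 0.01 (23 above 0 each time). None had ranges that did not overlap, with 4.91% of all genes. Myc differed between numbers 2 and 3 by 0.14 (SE 0.05, adjusted p = 0.697) with array 2 above array 3 in all fusions, and Npm1 had the lowest difference, -0.09.

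The rest of the machinery was read through 9 further lists. When BCR-RET was set against BCR-ABL, 0 of their 293 genes passed by limma, beside 0.587% of all genes. For FGFR1OP-RET and BCR-ABL it was 1, or 0.341% beside 1.02% of all genes, and between the RET fusions it was 2, or 0.683% beside 1.33%. With the array number as a block, 3 passed in BCR-RET against BCR-ABL, or 1.02% beside 1.82% of all genes. They were Mycn, Mxd4 (-0.26, adjusted p = 0.0490), a Max partner that opposes Myc, and Mtap of the polyamine list (-0.27, adjusted p = 0.0408), which salvages methylthioadenosine. None of 19 other RNA polymerase I genes, 42 other small subunit factors, 48 other large subunit factors, 13 polyamine genes, 26 nucleotide synthesis genes or 55 cytosolic ribosomal protein genes passed in any of the 3 comparisons by limma without that block. Of 35 other snoRNP and processing genes, Pop5, a subunit of RNase P and RNase MRP, was 0.48 higher in BCR-RET than in FGFR1OP-RET (adjusted p = 0.0361). With the array number as a block, 8 of these 35 snoRNP and processing genes passed there, all higher in BCR-RET, beside 5.69% of all genes. The comparison of the RET fusions was not treated as paired by number. In that comparison 28 of these snoRNP and processing genes were above 0, beside 60.5% of all genes and 48.8% of the genes as bright as the measured members. Of 21 genes of the Myc network, Mlxip, which encodes a Mondo partner of Mlx, fell by 0.34 in BCR-RET against FGFR1OP-RET (adjusted p = 0.0491). Of 34 other widely cited Myc targets, Gadd45a, a growth arrest gene that Myc is known to repress, rose by 0.58 in FGFR1OP-RET against BCR-ABL (adjusted p = 0.0332). The counts with an unadjusted p under 0.05 ran from 0 to 9 per list and comparison.

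Max, the obligate partner of Myc, had means of 11.64, 11.59 and 11.62 in BCR-ABL, BCR-RET and FGFR1OP-RET cells, with differences of -0.05, -0.02 and -0.03 between BCR-RET and BCR-ABL, FGFR1OP-RET and BCR-ABL, and BCR-RET and FGFR1OP-RET. Mycl had means of 7.72, 7.80 and 7.73. Mycn, a Myc paralogue, read 12.26, 12.05 and 11.83 with BCR-ABL, 11.89, 11.72 and 11.40 with BCR-RET, and 12.08, 11.81 and 11.45 with FGFR1OP-RET. In BCR-RET against BCR-ABL, where the arrays were treated as paired by number, Mycn differed by -0.38. The call depended on the fit (adjusted p = 0.462 without and 0.0104 with the array number as a block). The BCR-RET array lay below the BCR-ABL array of the same number each time. In FGFR1OP-RET against BCR-ABL the difference was -0.26 (adjusted p = 0.683 without and 0.0381 with the block). Array 1 of each fusion read the highest and array 3 the lowest, and Mycn was 0.52 higher in number 1 than in number 3 (SE 0.06, adjusted p = 0.0019).

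Between numbers 1 and 3 these lists held more calls, 39 of the 293 genes or 13.3%, most of them lower in number 1. Beside the 9.85% of all genes, 20.3% of the genes as bright as the 35 passed. After a second quantile normalisation 1024 genes passed higher and 1024 lower, where the deposited values gave 634 and 1330. Lower were 4 of 19 other RNA polymerase I genes (Polr1d -0.31 and Polr2f -0.28, both subunits), with 0 higher. Of the 42 other small subunit factors 7 were lower and 0 higher, led by the kinase gene Riok2 (-0.52) and the helicase gene Ddx52 (-0.41). Of the 48 other large subunit factors 7 were lower and 2 higher, led by Nmd3, the export adapter of the large subunit (-0.37), and Rsl1d1 (-0.33). Of the 35 other snoRNP and processing genes 5 were lower and 0 higher, led by Rpp30 (-0.42) and Pop4 (-0.62), both subunits of RNase P. Of 26 nucleotide synthesis genes 5 were lower, led by Ctps2 (-0.35) and Adss (-0.30), and 2 of 13 polyamine genes were lower, Dhps (-0.26) and Mtap (-0.21). Higher in number 1 were Mycn and Mxi1 (0.30) of the 21 Myc network genes and the glycolysis genes Hk2 (0.99) and Pkm (0.22) of the 34 other Myc targets, of which 1, the chaperonin gene Tcp1 (-0.25), was lower. Of the 55 ribosomal protein genes, Rpl13 was higher (0.36) and Rpl12 lower (-0.27). Hk2 was also higher in number 1 than in number 2 (0.60, adjusted p = 0.0261), the only call of the 9 lists between those numbers, and none passed by limma between numbers 2 and 3, where 0 to 6 per list had an unadjusted p under 0.05. Named after their values were seen, the other calls in the smaller counts were Tcp1, the higher large subunit factors Mdn1 (0.24) and Dnajc21 (0.20), Znrd1 (-0.53) and Taf1b (-0.36) for RNA polymerase I, and Tsr2 (-0.37), Nufip1 (-0.28) and Znhit3 (-0.50) for snoRNP and processing. For nucleotide synthesis they were Gmps (-0.27), Paics (-0.24) and Prps2 (-0.19). The calls of these 9 lists were not refitted without single arrays.

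**Figure D4:**
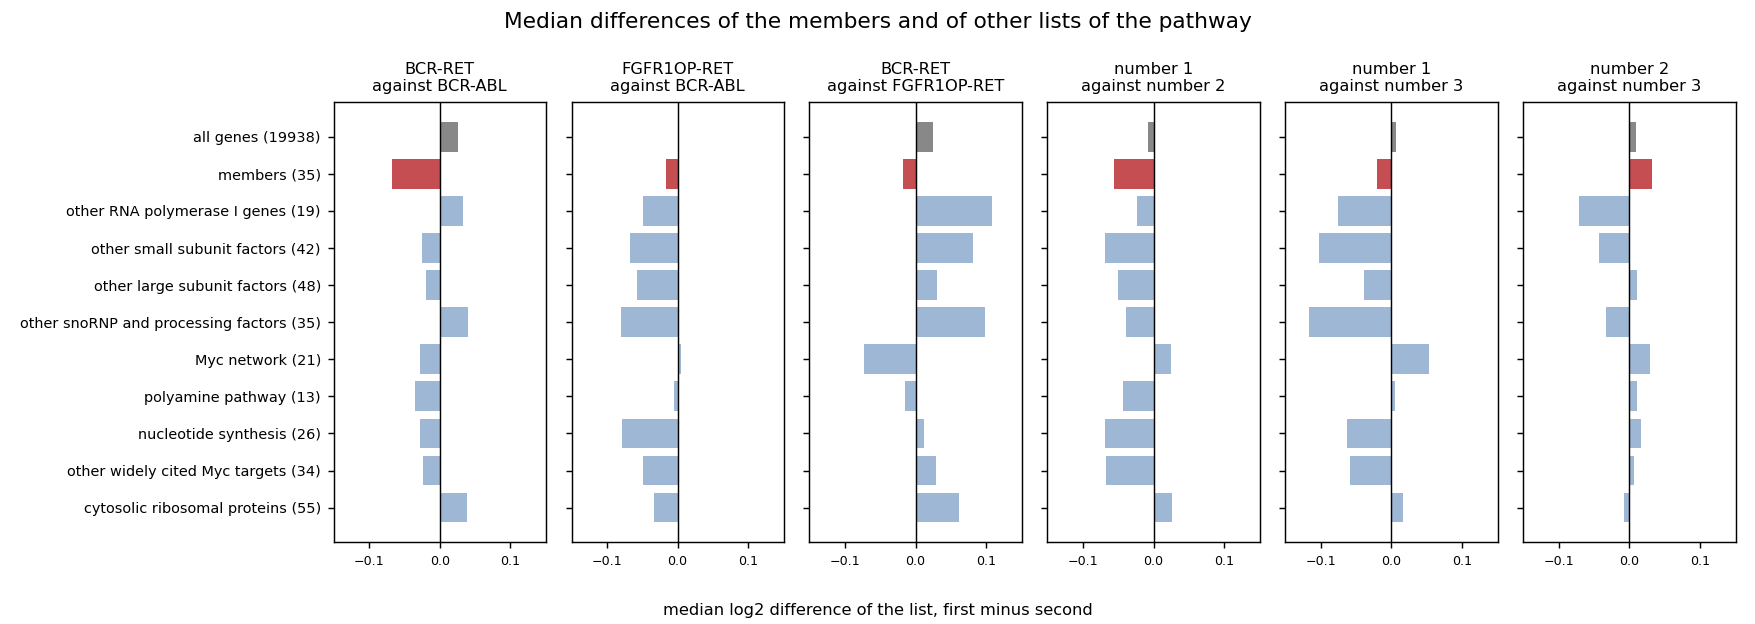
Median log2 difference, first minus second, of all genes (grey), of the 35 genes (red) and of the 9 further lists (blue, number of genes in brackets) in the 3 comparisons of fusions and the 3 of array numbers. All medians lie within 0.15 of 0, and the members' own medians run from -0.07 to 0.03.

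The E-box sequence CACGTG was searched in the promoter windows of the genes because it is the canonical site of Myc and Max. The windows are those of RefSeq on GRCm38.p6, from 250 bases before to 50 after the start of a transcript, and 29 of the 36 genes had such a window, 31 windows in all. CACGTG reads the same on both strands. It occurred in 19.4% of the 31 windows and in 7.15% of 32851 windows of all genes. The related CACGCG or its reverse complement CGCGTG occurred in 25.8% and 9.27%, and a window with both kinds counts in both shares. The GC content, which such letters follow in part, had a median of 59.7% in the windows of the list and of 52.7% in all windows. The 6 genes with CACGTG are shown with the surrounding bases on the strand of the gene, 5′ to 3′, with the E-box in capitals.
Mybbp1a, chr11:72441355-72441376 (+): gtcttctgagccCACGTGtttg
Nop2, chr6:125131811-125131840 (+): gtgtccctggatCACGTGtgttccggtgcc
Pes1, chr11:3963965-3963994 (+): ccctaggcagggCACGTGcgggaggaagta
Tsr1, chr11:74898092-74898121 (+): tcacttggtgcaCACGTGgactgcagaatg
Utp20, chr10:88826765-88826789 (-): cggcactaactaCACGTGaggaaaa
Wdr43, chr17:71616220-71616249 (+): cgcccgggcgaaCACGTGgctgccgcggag
In Nop2 the E-box began 60 bases before the start, and in Pes1, Wdr43, Tsr1, Utp20 and Mybbp1a at positions 3, 18, 25, 38 and 41 after it. Differences of these 6 genes in BCR-RET against BCR-ABL lay between -0.11 (Utp20) and 0.07 (Pes1), and in FGFR1OP-RET against BCR-ABL between -0.19 (Tsr1) and 0.05 (Pes1). Cad and Odc1, named above as classical Myc targets, had windows without CACGTG, and bases outside the windows were not searched. A match of letters is a description of the sequence and not a measured binding site.

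The arrays correlated with r of 0.993 to 0.996 within groups and of 0.989 to 0.996 between groups over all probe sets. None of 8 markers of blood cells and of the line was among the lowest 25% of genes by mean, with Ptprc at 11.68, 11.48 and 11.84 and the interleukin-3 receptor chain Csf2rb at 12.03, 12.75 and 12.72 in BCR-ABL, BCR-RET and FGFR1OP-RET cells. The B-lineage markers Cd79a, Dntt, Ebf1, Ms4a1, Rag1 and Rag2, 6 of 13 measured, were among the lowest 25% of genes. The other B-lineage markers measured were not. Cd79b read 9.64, 9.87 and 9.72 and Igll1 7.73, 7.85 and 7.85 in the same order of fusions. Among the lowest 25% were also 4 of 8 T and NK cell markers and 2 of 9 stroma markers, and Kit read 7.35, 7.37 and 7.34. The summed log2 value of 9 monocyte and macrophage markers, of which Mrc1 alone was among the lowest 25%, ran from 76.6 to 76.7 on the BCR-ABL arrays, from 77.9 to 78.9 on the BCR-RET arrays and from 79.2 to 82.0 on the FGFR1OP-RET arrays. Of these, Cd14 (1.06) and Fcgr1 (0.57) were higher in FGFR1OP-RET than in BCR-ABL, and Cd14 was lower in BCR-RET than in FGFR1OP-RET (-1.21), with means of 7.31, 7.16 and 8.37 in BCR-ABL, BCR-RET and FGFR1OP-RET cells. None of the 9 passed in BCR-RET against BCR-ABL by limma, where 2 had an unadjusted p under 0.05. Of the 8 markers of blood cells and of the line, Csf2rb2 (0.90), Csf2rb (0.72) and Cd48 (0.45) were higher in BCR-RET than in BCR-ABL. Csf2rb (0.69) and Csf2rb2 (0.56) were also higher in FGFR1OP-RET than in BCR-ABL, while BCR-RET had more Cd48 (0.64) and less Ptprc (-0.36) than FGFR1OP-RET. The summed log2 value of 5 measured erythroid markers ran from 43.7 to 44.2, 44.8 to 45.1 and 44.3 to 44.8 in the same order of fusions. All 5 were above 0 in BCR-RET against BCR-ABL, and Klf1, an erythroid transcription factor gene, passed there (0.47, adjusted p = 0.0440). The part of these differences in the values of Myc and the ribosome biogenesis genes was not tested, and in bulk RNA fewer cells of a kind and less RNA per cell cannot be told apart.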

How the data were processed

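Per the labels and the submitters' processing notes, the authors deposited log2 values per probe set, made by gene-level RMA in Affymetrix Expression Console, and neither the software version nor the genome build is given in the sources used here. Of 35557 probe sets, 21789 had 1 gene symbol, 1621 several and 12147 none. Only the first kind was used, and for 999 genes with several probe sets the brightest over the 9 arrays was taken. Symbols were checked by Entrez identifier against a reference gene table of GRCm38.p6, which changed 0 of them, and 91 identifiers were not in it. The 36 genes, their roles and the further lists were chosen with earlier results of these data known.

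The main fit was limma 3.58.1 in R 4.3.3 (lmFit, eBayes) with a mean per fusion over all 9 arrays. Array numbers were compared in a fit of fusion plus number. The fits were tested on simulated data. Array values were given for Myc, for genes past the threshold and for the genes with the highest and lowest difference in each comparison. Each role group had its gene with the lowest F test p named, and each further list at most 2 calls per comparison. Of all genes, 30.1% repeated a value on 3 or more arrays and 872 showed no spread at all in some group. Odc1, Fbl, Mrto4 and Wdr12 had 2 probe sets, and the genome position of each set was not checked. The Mrto4 set not used gave 0.18 in FGFR1OP-RET against BCR-ABL. The Fbl set not used gave 0.10 in BCR-RET and 0.01 in FGFR1OP-RET against BCR-ABL. Cross-hybridisation with related copies was not tested, and the number of arrays limits the precision.

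Deviations from the group means of arrays with the same number correlated across genes with r of 0.617, 0.155 and 0.367 between BCR-RET and BCR-ABL, 0.382, -0.128 and 0.400 between FGFR1OP-RET and BCR-ABL, and 0.498, -0.152 and 0.410 between BCR-RET and FGFR1OP-RET. With a limit of 0.1, only the first comparison was treated as paired by number, on the evidence of the data and not of the labels. The pairing entered only through the separate fits with the array number as a block. The main fit left it out. The SEs, intervals and unadjusted p counts given for that comparison come from the main fit.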

Additional observations from a re-analysis of the deposited data

How the results depend on the processing

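A block for the replicate number gave 362 genes in BCR-RET against BCR-ABL in place of 117. It gave 576 in place of 203 in FGFR1OP-RET against BCR-ABL, 1135 in place of 265 in BCR-RET against FGFR1OP-RET, and 1199 in place of 347 in the F test over the fusions. Only the first of these was treated as paired by number. Of the 35 genes 0 passed in the first, 1 in the second and 1 in the F test, Dkc1 both times (second comparison adjusted p = 0.0350). Of the 293 genes of the further lists, the block gave 3, 12 and 18 calls in the 3 comparisons in place of 0, 1 and 2, or 1.02%, 4.10% and 6.14% beside 1.82%, 2.89% and 5.69% of all genes. Of the 18 calls in the third comparison, 8 were snoRNP and processing genes. With only the 6 arrays of the groups compared, 56, 94 and 34 genes passed. Leaving out all 3 arrays of number 1, 2 or 3, chosen after seeing the data, left 28, 1 and 2 genes in the first comparison, 62, 0 and 17 in the second, 67, 0 and 15 in the third and 59, 0 and 8 in the F test, and 0 of the 35 in each. Without each array in turn the counts ran from 28 to 114, 70 to 185, 86 to 194 and 148 to 287, with 0 of the 35 each time, and Dkc1 in BCR-RET against BCR-ABL ran from -0.11 to 0.0032, above 0 without BCR-RET array 1 alone.

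For numbers 1 and 2, 290 genes passed without the lowest 25% of genes by mean and 91 with array medians subtracted, in place of 157, and for the F test over numbers 1383 without the lowest 25%, in place of 887. Between numbers 1 and 3, 4 of the 35 passed after a second quantile normalisation (Cad, Fbl, Mybbp1a and Rrp12), 0 with array medians subtracted and 0 to 3 without single arrays. Without FGFR1OP-RET array 2, Dkc1 passed too (adjusted p = 0.0484). In the deposited values a second Fbl probe set gave -0.05 between numbers 1 and 3, where the one used gave 0.15. In the F test over numbers 1 of the 35, Cad, passed after a second quantile normalisation. Without single arrays the gene counts ran from 17 to 281 (numbers 1 and 2), 284 to 2549 (1 and 3), 0 to 5 (2 and 3) and 43 to 1501 (F test). The cause of these changes was not tested, apart from fewer arrays or genes where they were left out. Subtracting array medians turned the 74 higher and 43 lower genes of BCR-RET against BCR-ABL into 33 and 51, and the 95 and 170 of BCR-RET against FGFR1OP-RET into 55 and 240.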
